A study of Homo sapiens with 40 samples.

Results

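The genes described here are 10 genes known from monocytes and macrophages: CD14, LYZ, FOLR2, FPR1, FPR2, FPR3, CSF1R, CD163, CD68 and ITGAM. They were followed in KMS-11 myeloma cells as targets of H3K27me3, the histone mark laid down by Polycomb repressive complex PRC2. The members are 10 of 19451 protein-coding genes scored, and they were chosen by name with their H3K27me3 values already in view, so those values are given as a description and without a test. For each library a gene's value is its covered percent, the share of its annotated bases that lies inside the merged H3K27me3 peaks of that library.

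The series asked how H3K27me3 is redistributed when the H3K36me2 methyltransferase NSD2 is lost. KMS-11 is a human multiple myeloma line whose t(4;14) translocation places NSD2 under immunoglobulin enhancers. H3K27me3 was mapped by CUT&Tag, where a transposase held by antibodies cuts the DNA beside the mark, from 50000 nuclei and with 13 PCR cycles per library, as the labels' protocols state. The 30 libraries used, each with its own peak list, made 15 groups of 2. In the knockout experiment these were NSD2 KO clone 3, NSD2 KO clone 12 and their wild-type KO parental line. In the degradation experiment they were NSD2-dTAG clone 8, NSD2-dTAG clone 11 and the dTAG parental line, which carries no tag, each at days 0, 7, 14 and 21 of dTAGV-1, a compound that recruits the VHL ubiquitin ligase to a tagged protein. The labels give 100 nM for the tagged cells and state no dose for the parental line. All groups share the KMS-11 background with its translocation, and each clone is 1 line, so 2 clones stand for each genetic change. Replicates of the clones are described as biological in the series text. The labels do not say whether parental replicates came from separate cultures, so p-values may measure technical spread only.

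CD14 is the coreceptor through which phagocytes sense lipopolysaccharide, and lysozyme, encoded by LYZ, is a secreted antibacterial enzyme. CSF1R is the receptor for the macrophage growth factors CSF1 and IL34, and ITGAM is the alpha chain of complement receptor 3. Genes of this kind are driven in myeloid cells by the transcription factor PU.1, encoded by SPI1, and are normally silent in plasma cells. PRC2 can keep silent genes marked with H3K27me3, and H3K36me2, the product of NSD2, is known to hinder PRC2 on the same histone tail.

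The libraries differed in how much was called. The lists of the 16 libraries of KO clones and treated dTAG clones covered 119 Mb on average (78.3 to 168 Mb), against 62.2 Mb (36.1 to 99.8 Mb) in the 14 libraries of the parental lines and the untreated dTAG clones. The background pileup estimated from the peak caller's values, which stands for depth, ran from 1.61 to 2.84 fragments per position in the first pool and from 0.922 to 3.26 in the second. Its mean was higher in the first pool, at 2.29 against 1.79. It was 2.49 in the KO clones and 2.04 in their parental line, and 2.33 at day 21 and 1.44 at day 0 in the dTAG clones. Depth thus went along with the groups compared. A gene outside peaks in a shallow list can still carry the mark, and fewer marked cells cannot be told apart from less of the mark in each cell. The libraries measure the mark and not RNA. Among plasma cell genes, JCHAIN was outside peaks in every library and TNFRSF17, the gene of BCMA, was above 0 in 3 of 30. The other plasma cell genes looked at had peaks in most libraries. SDC1, CD38 and SLAMF7 were above 0 in all 30, PRDM1 and IRF4 in 28, XBP1 in 24 and MZB1 in 22. Their median covered percent ran from 0.298% for PRDM1 to 8.75% for MZB1 and 36.0% for SLAMF7.

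Promoter sequences help to place the peaks described below. RefSeq promoter windows on GRCh38.p14, from 250 bases before to 50 bases after a start, were at hand for 7 of the 10 members. The 4 windows shown are those that a peak touched in at least 7 of the 16 KO and treated libraries. Their counts in that pool are therefore high by choice, and no such count is given over all windows. They are written in the direction of transcription. Capitals mark GAGGAA or its complement TTCCTC, the purine-rich core that PU.1 recognises, found here as letters only. Of 35116 windows in the table, 27.9% hold GAGGAA on either strand.
CD14, chr5:140633126-140633425, minus strand: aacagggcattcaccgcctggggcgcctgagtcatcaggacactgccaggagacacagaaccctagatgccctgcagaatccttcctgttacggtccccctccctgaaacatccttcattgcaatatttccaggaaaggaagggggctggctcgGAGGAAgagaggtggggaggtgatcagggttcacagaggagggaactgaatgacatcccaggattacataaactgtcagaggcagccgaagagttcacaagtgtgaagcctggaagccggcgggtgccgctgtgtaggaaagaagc
CSF1R outer promoter, chr5:150113316-150113615, minus strand: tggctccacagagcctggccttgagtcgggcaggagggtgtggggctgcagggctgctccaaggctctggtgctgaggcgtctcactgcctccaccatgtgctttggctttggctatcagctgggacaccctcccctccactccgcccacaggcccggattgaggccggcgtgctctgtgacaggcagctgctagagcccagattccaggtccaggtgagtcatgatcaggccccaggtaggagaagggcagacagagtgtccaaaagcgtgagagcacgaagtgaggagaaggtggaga
CSF1R inner promoter, chr5:150086505-150086804, minus strand: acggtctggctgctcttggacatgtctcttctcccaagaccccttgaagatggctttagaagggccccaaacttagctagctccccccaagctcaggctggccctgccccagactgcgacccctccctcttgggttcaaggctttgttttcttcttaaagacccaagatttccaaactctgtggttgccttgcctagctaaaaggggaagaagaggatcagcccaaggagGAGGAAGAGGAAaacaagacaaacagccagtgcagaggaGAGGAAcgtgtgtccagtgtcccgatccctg
ITGAM, chr16:31259725-31260024, plus strand: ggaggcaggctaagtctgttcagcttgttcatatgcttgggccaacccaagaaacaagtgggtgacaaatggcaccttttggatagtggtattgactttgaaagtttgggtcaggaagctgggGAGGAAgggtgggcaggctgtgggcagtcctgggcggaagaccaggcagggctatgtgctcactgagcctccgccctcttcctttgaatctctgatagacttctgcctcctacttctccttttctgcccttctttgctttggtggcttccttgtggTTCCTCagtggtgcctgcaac
The CD14 window holds 1 such core, the inner CSF1R window 3, of which 2 lie next to each other, the ITGAM window 2 and the outer CSF1R window none. CpG dinucleotides numbered 8 in the CD14 window, 8 and 4 in the outer and inner CSF1R windows and 2 in the ITGAM window, against a median of 14 over all windows.

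Across the 10 members, FOLR2 and LYZ showed H3K27me3 peaks in every KO and every treated clone library. CD14 lay outside peaks in all 14 parental and untreated libraries and inside them in 11 of the 16 KO and treated ones. CSF1R and ITGAM carried peaks in nearly all libraries and more in the KO and treated ones. FPR3, a formyl peptide receptor gene, had less coverage in the treated dTAG clones. FPR1 and FPR2 varied between replicates, and CD68 and CD163 were almost bare throughout. FPR2, CSF1R and ITGAM were each higher in the first replicate in 13 of 15 groups, and FPR3 in 12. The map of covered percent by gene and library shows these blocks.

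**Figure D1:**
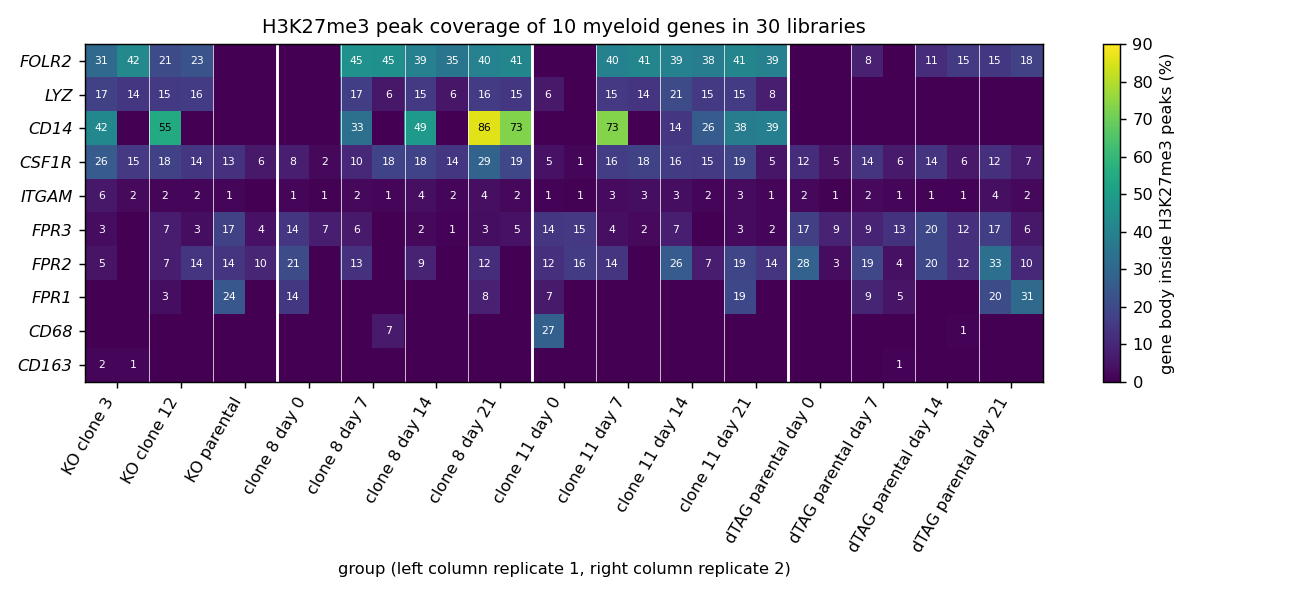
Covered percent (colour, 0 to 90%, with rounded values printed) of the 10 members in 30 libraries; columns are the libraries in pairs of replicates by group, rows the genes, and white lines divide the cell lines. FOLR2 was above 0 in all 16 KO and treated clone libraries and in 5 of the 14 others, all 5 from the treated dTAG parental line, and CD14 was above 0 in 11 of 16 and 0 of 14.

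Of the 10 members, 9 passed the filter on mean covered percent (1% to 99% over the 30 libraries), which 13977 genes passed, and CD163 did not. Counted by libraries that did not overlap, 4 members (LYZ, FOLR2, CSF1R and ITGAM) had every KO library above both KO parental libraries, as did 28.6% of tested genes, and none had every KO library below, as did 4.26%. At day 7 in the dTAG clones 3 members (FOLR2, CSF1R and ITGAM) lay wholly above day 0 and FPR3 wholly below, with 29.8% and 0.622% of tested genes doing so. The same 3 members and FPR3 did so at day 14, with 24.6% above and 1.17% below over all genes. At day 21 it was CD14, LYZ, FOLR2 and ITGAM above and FPR3 below, with 27.6% and 0.866% over all genes. In the dTAG parental line FOLR2 and FPR1 lay wholly above day 0 at day 21, as did 18.5% of genes, and no member lay wholly below, as did 3.1%. Since the members were chosen on these values, nothing is read from the counts.

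FOLR2 encodes folate receptor beta, a glycolipid-anchored receptor of tissue macrophages (chromosome 11, 72216794 to 72221950, GRCh38.p14). Its covered percent was 30.9% and 42.2% in KO clone 3 and 21.0% and 23.1% in KO clone 12, against 0% in both KO parental libraries. No KO library overlapped the parental line, and clone 12 lay below clone 3. The difference between KO clones and parental line was 29.3 percentage points (29.3% ± 9.61, SD, n = 4, against 0%, n = 2).

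In dTAG clone 8 FOLR2 was at 0% in both libraries of day 0, at 45.4% and 45.2% on day 7, at 39.2% and 34.9% on day 14 and at 39.8% and 41.2% on day 21. In clone 11 it was at 0% in both libraries of day 0, at 39.6% and 41.3% on day 7, at 39.4% and 38.2% on day 14 and at 41.2% and 39.1% on day 21. The 12 treated libraries all lay between 34.9% and 45.4%, with day 7 no lower than the later days. The dTAG parental line was at 0% in both libraries of day 0, 8.2% and 0% on day 7, 11.4% and 15.2% on day 14 and 14.6% and 17.6% on day 21. FOLR2 thus also had coverage in 5 of the 6 treated libraries of the untagged line, all below the lowest treated clone library, with a day 21 difference of 16.1 percentage points.

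Libraries of like estimated depth can be set side by side at FOLR2, LYZ and CD14, as single cases. The first replicate of the KO parental line had a pileup of 2.58, above the 2.46 and 2.04 of KO clone 12, and FOLR2 and LYZ were at 0% in it. CD14 was also at 0% in that library, but so it was in the second libraries of KO clone 12 (2.04) and KO clone 3 (2.60). The first day 0 library of dTAG clone 8, at 2.31, was deeper than both clone 11 libraries of day 14 (2.20 and 2.14), and FOLR2 was at 0% there. The other day 0 clone libraries were at 0.922, 1.24 and 1.29, below the shallowest treated clone library (1.61). The deepest library of all, the first dTAG parental library of day 21 (3.26), had CD14 and LYZ at 0% and FOLR2 at 14.6%. With the estimated pileup as a covariate the FOLR2 difference was 29.3 percentage points in the KO clones and 40.4 at day 21. The part of depth in the members' differences was not tested.

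**Figure D2:**
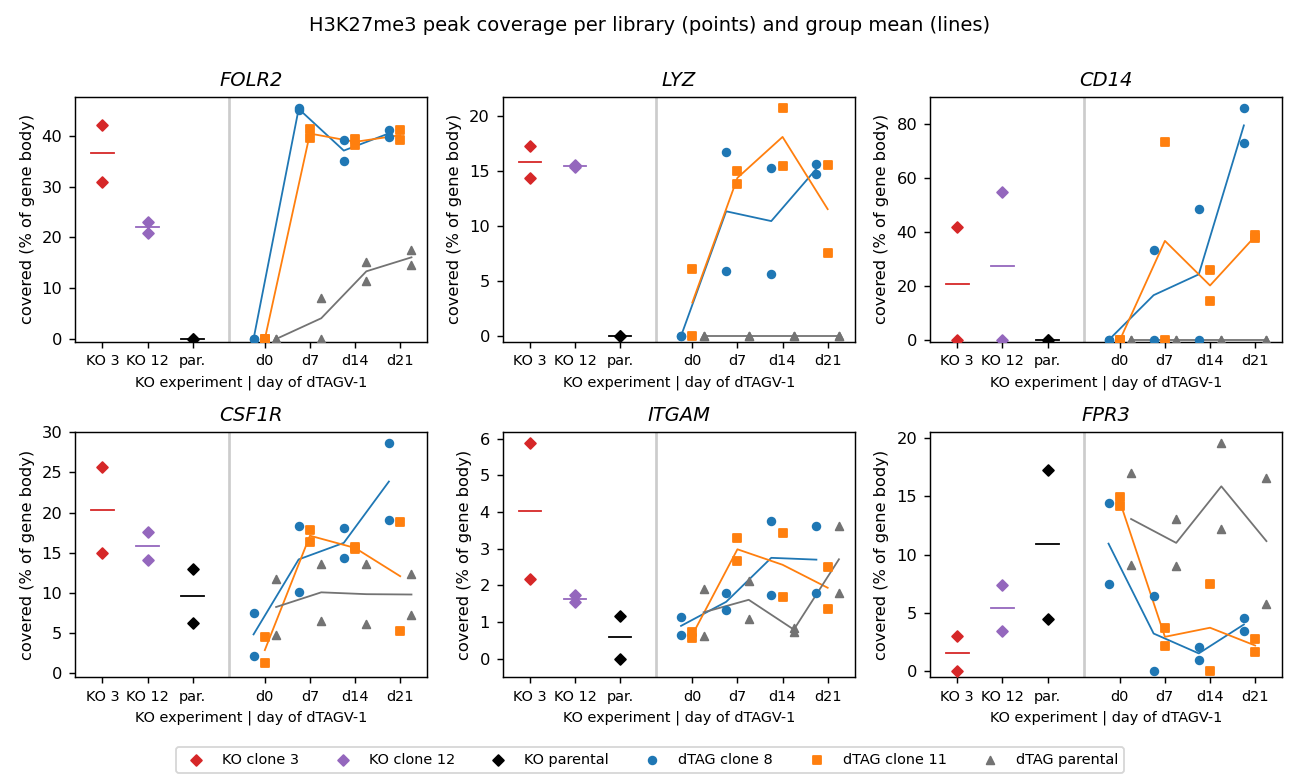
Covered percent (vertical axes, different ranges) of 6 members by library: KO clones 3 and 12 and the KO parental line on the left of each panel, days 0 to 21 of dTAGV-1 on the right, with points for libraries and lines for group means of 2. FOLR2 in both dTAG clones was at 0% on day 0 and between 34.9% and 45.4% at each later day, while FPR3 lay below its day 0 values at each later day.

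In the treated dTAG clones the peaks placed this coverage at 1 end of FOLR2. The stretches given here and for the other genes were picked because peaks covered them in a large share of either pool. A high count in at least 1 pool was thus fixed by the choice, and the counts were not tested. A stretch at chr11:72216723-72218825, from −0.071 to 2.031 kb of the gene's lower-coordinate end, was inside peaks in 14 of the 16 KO and treated clone libraries, against none of the 14 others. These were all 12 treated dTAG clone libraries and 2 of the 4 KO libraries, and in the other 2 KO libraries peaks covered less than 50% of the stretch. A second stretch 6.392 to 7.127 kb from that end, beyond the gene and reaching into INPPL1, was inside peaks in 15 of 16 and 13 of 14 libraries. The neighbouring coverage outside FOLR2 was therefore present in both pools. FOLR1, the folate receptor alpha gene 20.5 kb away, is no member and was tested with limma, a gene being called at a Benjamini-Hochberg adjusted p under 0.05 over all 13977 genes. FOLR1 was called gained in both experiments, with 32.7% ± 7.25 in KO clones and 12.4% ± 9.42 in their parental line (SD, n = 4 and 2; limma adjusted p = 0.0330). For the dTAG clones it had 28.3% ± 7.38 at day 21 against 7.70% ± 7.93 at day 0 (n = 4 each; limma adjusted p = 0.00654). INPPL1, nearer to FOLR2 on the other side at 1.61 kb, was not called in either experiment (limma adjusted p = 0.842 in the KO clones and 0.896 at day 21).

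LYZ (chromosome 12, 69348381 to 69354234) was at 17.3% and 14.4% in KO clone 3 and 15.4% and 15.5% in KO clone 12, against 0% in both KO parental libraries. The 4 KO values lay close together, at 15.6% ± 1.20 (SD, n = 4), and none overlapped the parental line. In dTAG clone 8 LYZ was at 0% in both libraries of day 0, 16.7% and 5.9% on day 7, 15.3% and 5.6% on day 14 and 15.6% and 14.7% on day 21. In clone 11 it was at 6.1% and 0% on day 0, 15.0% and 13.8% on day 7, 20.7% and 15.5% on day 14 and 15.5% and 7.6% on day 21. Every treated clone library had LYZ coverage, but the day 7 and day 14 values of clone 8 overlapped the single covered day 0 library of clone 11. All 8 libraries of the dTAG parental line were at 0%.

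LYZ coverage came from a stretch at chr12:69348425-69349280, 0.044 to 0.899 kb from the gene's lower-coordinate end, which was inside peaks in 14 of 16 KO and treated libraries, against 0 of 14. Just past the other end, chr12:69354558-69355005 was inside peaks in all 16 and in none of the 14. On the lower side, stretches at −7.112 to −6.739 kb and −5.863 to −5.613 kb were inside peaks in 14 and 13 of 16 libraries, against 1 of 14 each. A stretch at the lower-coordinate end of the next gene, YEATS4 (11.254 to 12.006 kb), was inside peaks in all 30 libraries. The gain at LYZ thus sat beside a peak shared by every library. YEATS4 itself was not called in either experiment (limma adjusted p = 0.197 in the KO clones and 0.0603 at day 21).

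CD14 (chromosome 5, 140631732 to 140633701) is the shortest member, 1970 bases, so that a single peak sets its value. It was at 41.9% and 0% in KO clone 3 and 55.0% and 0% in KO clone 12, against 0% in both KO parental libraries, and the groups overlapped at 0. In dTAG clone 8 it was at 0% in both libraries of day 0, 33.3% and 0% on day 7, 48.7% and 0% on day 14 and 85.8% and 73.1% on day 21. In clone 11 it was at 0% in both libraries of day 0, 73.5% and 0% on day 7, 14.3% and 26.1% on day 14 and 37.9% and 39.0% on day 21. All 8 libraries of the dTAG parental line were at 0%. At day 21 all 4 treated libraries lay above day 0, at 58.9% ± 24.2 (SD, n = 4) against 0%, whereas on days 7 and 14 at least 1 treated library was at 0%.

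The 5 KO and treated libraries with CD14 at 0% were all the second replicate of their group, and their pileup ran from 1.71 to 2.60. CD14 peaks were weak: the median −log10 q of the authors' peaks over the gene was 1.78 and the highest 2.81, with a median fold of 2.82 over the caller's background. The promoter window printed above was touched by a peak in 7 of 16 KO and treated libraries, none of them from the KO clones, and in 0 of 14 others. CD14 overlaps TMCO6 in the annotation, so its coverage cannot be told apart from that of the other gene. NDUFA2, the nearest protein-coding gene on the higher side at 11.6 kb, was not called in either experiment (limma adjusted p = 0.617 in the KO clones and 0.844 at day 21). LOC112267855, the nearest protein-coding gene on the lower side at 36.7 kb, was called gained with 7.57% ± 3.99 in KO clones and 0% in the KO parental line (limma adjusted p = 0.0410, n = 4 and 2), and with 12.0% ± 4.78 at day 21 and 0% at day 0 (limma adjusted p = 0.000330, n = 4 each).

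CSF1R (chromosome 5, 150053295 to 150113365) had coverage in every library. It was at 25.7% and 15.0% in KO clone 3 and 17.6% and 14.1% in KO clone 12, against 13.0% and 6.2% in the KO parental line. The groups came within about a percentage point of each other but did not overlap, at 18.1% ± 5.27 (SD, n = 4) against 9.59% ± 4.81 (n = 2). Scaled by called length this KO difference, 8.50 percentage points, was 0.10. Scaling lowers values from long lists, so it shrinks a difference of this direction by construction.

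In dTAG clone 8 CSF1R was at 7.5% and 2.1% on day 0, 10.0% and 18.3% on day 7, 18.1% and 14.4% on day 14 and 28.7% and 19.1% on day 21. In clone 11 it was at 4.5% and 1.2% on day 0, 16.4% and 17.8% on day 7, 15.7% and 15.4% on day 14 and 18.8% and 5.3% on day 21. Days 7 and 14 lay above all day 0 values, and 1 library of day 21 fell among them. The dTAG parental line was at 11.7% and 4.7% on day 0, 13.6% and 6.5% on day 7, 13.6% and 6.1% on day 14 and 12.3% and 7.3% on day 21. Its values kept the same range at each day, with the first, deeper replicate the higher one each time. At day 21 the dTAG clones differed from day 0 by 14.1 percentage points, 6.52 after scaling by called length and 8.34 with the pileup covariate.

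Within CSF1R the difference between the pools was not the same at every position. In macrophages CSF1R is known to be transcribed from an inner promoter, and in placental trophoblast from an outer one. At the outer end, chr5:150112950-150113378 was inside peaks in 14 of 16 KO and treated libraries, against 2 of 14. The outer promoter window was touched by a peak in 14 of 16 libraries, against 0 of 14. Beside the inner promoter, chr5:150085385-150086485 was inside peaks in 14 of 16 libraries, against 4 of 14, and the inner window itself was touched in 11 of 16, against 4 of 14. Peaks were listed at both promoters more often in the KO and treated libraries, whose lists covered 119 Mb on average, against 62.2 Mb. Without a count over all promoter windows, nothing particular to CSF1R is read from this.

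Other stretches of CSF1R ran the other way or did not separate the pools. A stretch 11.573 to 12.361 kb from the lower-coordinate end, toward the end of the gene, was inside peaks in 7 of 16 KO and treated libraries, against 12 of 14. Its neighbour at 10.482 to 10.642 kb was inside peaks in 8 of 16, against 11 of 14, and 1 at 7.853 to 8.583 kb in 13 of 16, against 8 of 14. For the stretches at 11.573 and 10.482 kb the higher share came from the dTAG parental line, with all 8 libraries, and from both KO parental libraries, whereas the dTAG clones had 7 and 6 of 12 treated libraries, against 2 and 1 of 4 at day 0. A stretch of 1291 bases at 54.828 to 56.118 kb was inside peaks in 12 of 16, against 4 of 14. The profile of library shares along the genes shows these positions.

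PDGFRB, the platelet-derived growth factor receptor gene 0.473 kb beyond the outer end of CSF1R, was called gained in both experiments. It had 11.3% ± 3.72 in KO clones, against 2.22% ± 0.828 in the parental line (SD, n = 4 and 2; limma adjusted p = 0.0255), and 9.83% ± 3.12 at day 21 and 1.32% ± 1.09 at day 0 in the dTAG clones (n = 4 each; limma adjusted p = 0.00808). HMGXB3, on the other side at 0.166 kb, had too little coverage to be tested, with 1.17% ± 1.35 in the KO clones and 1.16% ± 1.64 in the KO parental line.

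**Figure D3:**
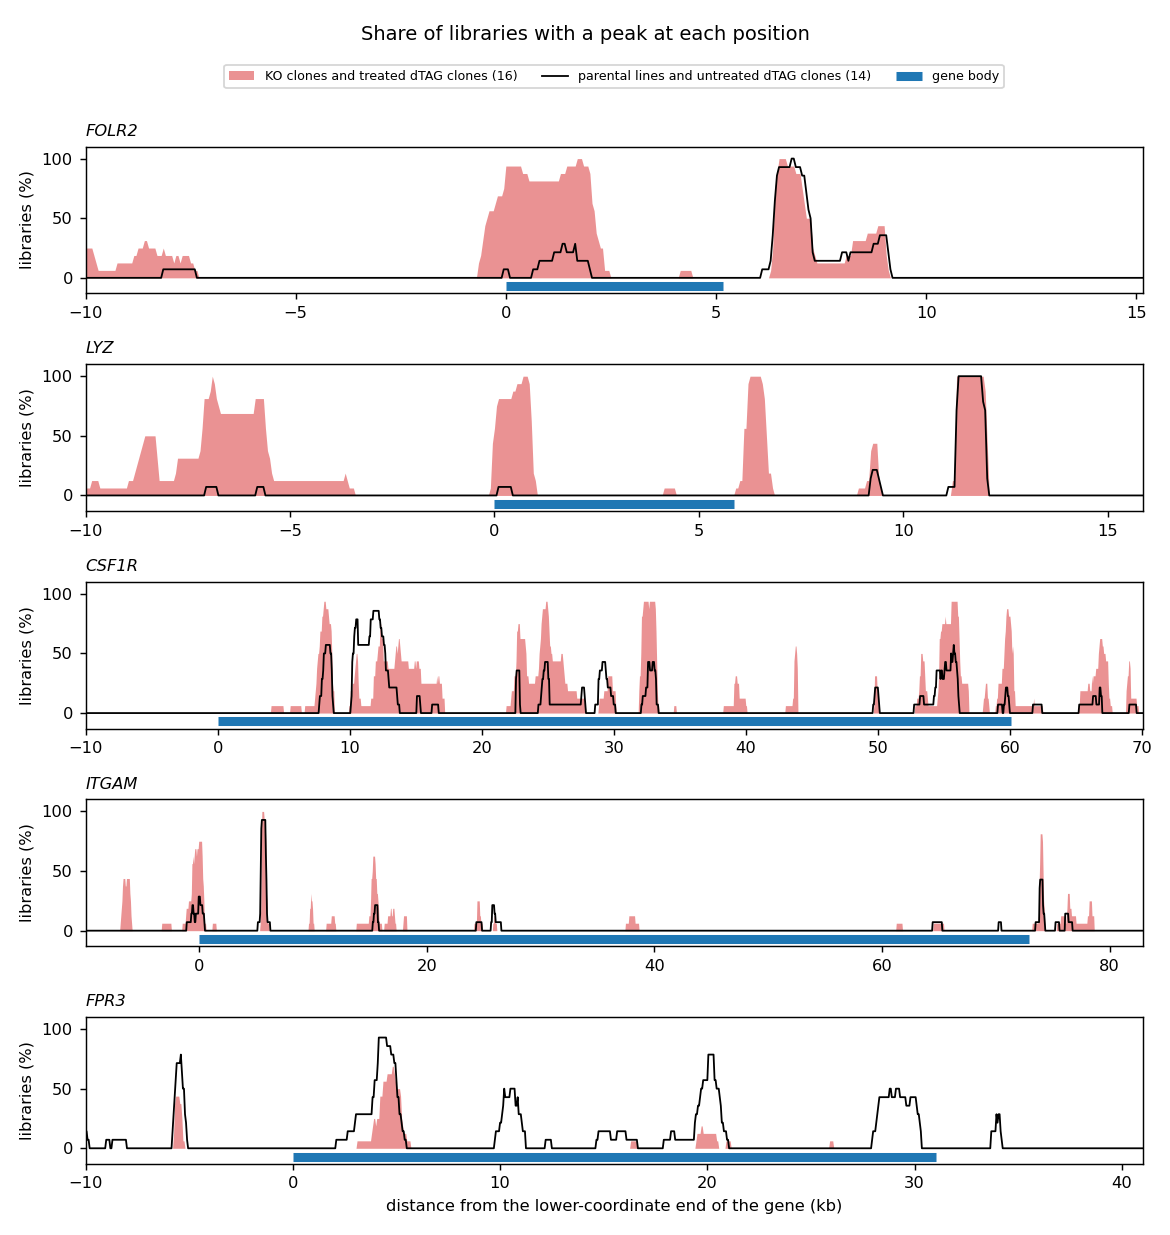
Share of libraries with a peak (vertical axes, percent) along 5 members and 10 kb on either side, by distance from the gene's lower-coordinate end (horizontal axes, kb); the filled area is the 16 KO and treated clone libraries, the black line the 14 parental and untreated libraries and the blue bar the gene. The stretch at the start of the FOLR2 bar was covered in 14 of 16 libraries against 0 of 14, whereas the FPR3 stretch at 20.011 to 20.325 kb was covered in 2 of 16 against 11 of 14. Both stretches were picked for a large share in either pool, so the higher count is high by choice.

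ITGAM (chromosome 16, 31259975 to 31332877) is the longest member and had low coverage throughout, with 5.89% the highest of any library. It was at 5.9% and 2.2% in KO clone 3 and 1.7% and 1.5% in KO clone 12, against 1.2% and 0% in the KO parental line. The KO libraries did not overlap the parental line, and 3 of the 4 lay within about a percentage point of it. In the dTAG clones ITGAM was at 0.770% ± 0.257 on day 0, 2.27% ± 0.889 on day 7, 2.66% ± 1.09 on day 14 and 2.32% ± 0.989 on day 21 (SD, n = 4 each), with each treated day wholly above day 0. The dTAG parental line ran from 0.619% to 3.63% over its 8 libraries and overlapped the treated clones.

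The start of ITGAM, chr16:31259921-31260179, was inside peaks in 12 of 16 KO and treated libraries, against 3 of 14, and the printed promoter window was touched by a peak in 12 of 16, against 4 of 14. A peak at chr16:31265395-31265832, 5.420 to 5.857 kb into the gene, was present in 16 of 16 and 13 of 14 libraries. That peak was the strongest over any member, with a −log10 q of up to 39.6, whereas the median over ITGAM peaks was 2.16. ITGAX, the gene of the related integrin alpha X chain 22.3 kb further on, was not called in either experiment (limma adjusted p = 0.765 in the KO clones and 0.652 at day 21).

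The formyl peptide receptor genes FPR1, FPR2 and FPR3, whose products guide phagocytes to bacterial and mitochondrial peptides, lie side by side on chromosome 19. FPR3 (51795157 to 51826190) was the member with less coverage after treatment. It was at 3.0% and 0% in KO clone 3 and 7.4% and 3.4% in KO clone 12, against 17.3% and 4.5% in the KO parental line, and these ranges overlapped. In clone 8 it was at 14.4% and 7.5% on day 0, 6.5% and 0% on day 7, 2.1% and 1.0% on day 14 and 3.5% and 4.5% on day 21. In clone 11 it was at 14.2% and 15.0% on day 0, 3.7% and 2.2% on day 7, 7.5% and 0% on day 14 and 2.8% and 1.6% on day 21. All 12 treated clone libraries lay below the lowest day 0 library, at 3.10% ± 1.22 on day 21 and 12.8% ± 3.53 on day 0 (SD, n = 4 each). The dTAG parental line was at 17.0% and 9.1% on day 0, 9.0% and 13.0% on day 7, 19.6% and 12.2% on day 14 and 16.6% and 5.8% on day 21, with no day apart from the others.

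FPR3 coverage was lower in the treated dTAG clones while their called length was larger, at 120 Mb on day 21 and 50.7 Mb on day 0. Scaled by called length the day 21 difference was −21.1, against −9.66 percentage points unscaled. Scaling raises values from short lists and lowers those from long ones. It thus widens a difference of this direction by construction and tells nothing further about it. The stretch 4.113 to 4.850 kb from the lower-coordinate end was inside peaks in 9 of 16 KO and treated libraries, against 13 of 14, and that at 20.011 to 20.325 kb in 2 of 16, against 11 of 14. FPR3 overlaps ZNF577 in the annotation, so the coverage cannot be given to 1 of these genes. ZNF649, the nearest gene beyond it, was not called in either experiment (limma adjusted p = 0.232 and 0.673).

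FPR2 (51761180 to 51770531) was above 0 in 24 of 30 libraries. It was at 6.43% ± 5.77 in the KO clones (SD, n = 4), against 11.9% ± 2.95 in the KO parental line (n = 2). In the dTAG clones it was at 12.2% ± 8.90 on day 0, 6.69% ± 7.75 on day 7, 10.4% ± 10.9 on day 14 and 11.1% ± 7.96 on day 21 (SD, n = 4 each). The KO libraries overlapped the parental line, and each treated day overlapped day 0. All 8 dTAG parental libraries had FPR2 coverage, from 3.08% to 32.8%, with the first replicate above the second on each day.

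FPR1 (51745172 to 51751878) was above 0 in 10 of 30 libraries, at 3.37% in 1 KO library and 24.3% in 1 KO parental library. In the dTAG parental line it was at 0% in both libraries of day 0, 9.35% and 4.76% on day 7, 0% in both of day 14 and 20.4% and 31.0% on day 21. Day 21 was thus above day 0 in the untagged line, with day 14 back at 0. In the dTAG clones FPR1 was at 5.25% ± 6.87 on day 0, 0% on days 7 and 14 and 6.88% ± 9.16 on day 21 (SD, n = 4 each). HAS1, a hyaluronan synthase gene 21.2 kb below FPR1, was not called (limma adjusted p = 0.583 in the KO clones and 0.914 at day 21).

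CD68, the gene of the lysosomal glycoprotein macrosialin (chromosome 17, 7579638 to 7582111), was above 0 in 3 of 30 libraries. These were 27.5% in the first clone 11 library of day 0, 6.67% in the second clone 8 library of day 7 and 0.808% in the second dTAG parental library of day 14. No KO and no day 21 library had a peak over it. A stretch 4.176 to 4.477 kb above its lower-coordinate end, within MPDU1, was inside peaks in 7 of 16 KO and treated libraries, against 13 of 14. The listed coverage around CD68 thus lay outside the gene.

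CD163, the haemoglobin scavenger receptor gene (chromosome 12, 7470811 to 7503777), was the barest member. KO clone 3 had 1.67% and 1.06%, the second dTAG parental library of day 7 had 0.886%, and the other 27 libraries had 0%. No peak touched its promoter window in any library. Its neighbours CD163L1 and APOBEC1 also had too little coverage to be tested. CD163 therefore entered no comparison.

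Across the members, the authors' peaks were weak. Median −log10 q was 2.70 for FOLR2, 2.69 for LYZ, 2.08 for CSF1R and 1.91 for FPR3, where the lists begin at about 1. With peaks of −log10 q of at least 5 alone, the KO difference was 0 for FOLR2 and CD14 and 4.31 percentage points for LYZ, and the day 21 difference was 9.94 for FOLR2 and 0 for LYZ and CD14. Joining peaks over gaps of up to 3 kb raised the KO difference at FOLR2 to 52.1 percentage points and left that of LYZ at 15.6. The members' values therefore rest largely on peaks near the caller's threshold.

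As a description over 15 group means that share libraries and depth, covered percent ran with called length, with Pearson r of 0.93 for CSF1R, 0.91 for LYZ, 0.89 for FOLR2, 0.84 for ITGAM and 0.75 for CD14. It ran against it for FPR3 (−0.89), FPR2 (−0.54), CD68 (−0.36) and FPR1 (−0.31). The part of called length in the members' differences was not tested beyond the scaled values. The 3 tested genes with the most similar group means, outside 1 Mb, were HYAL4, TERB1 and DYNAP for LYZ (r of 0.99 to 0.98) and TGM5, PIK3R3 and the readthrough P3R3URF-PIK3R3 for FOLR2 (r of 0.98). They were TMEM242, GJB6 and UBA7 for CD14 (0.96), PRDM11, STUM and LOC124907996 for CSF1R (0.98 to 0.97), and TMEM200B, GSX1 and LOC124901163 for FPR3 (0.95 to 0.91).

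For the wider programme, 61 other myeloid genes were listed by role, with no member among them, and 53 passed the filter. Limma with Benjamini-Hochberg adjustment over 13977 genes called 5 of the 53 gained in the KO clones (9.43%) and 0 lost, where 18% of all tested genes were gained and 0.744% lost. The median difference was 1.91 percentage points, beside 1.46 over all tested genes. At day 21 in the dTAG clones 14 were called gained (26.4%) and 0 lost, where 26.5% of all genes were gained and 0.494% lost, with a median of 4.28, beside 2.05 over all genes. The share of the list called gained was thus below that of all genes in the KO clones and near it at day 21. In the dTAG parental line limma called none at day 21, where 0.0143% of all genes were gained and 0% lost. At an unadjusted limma p under 0.05 there were 3 of the 53, beside 536 of the 13977 tested genes. The median there was 2.56, beside 0.848 over all genes. After scaling by called length the list had 3 gained and 13 lost in the KO clones, and 6 gained and 17 lost at day 21. Over all genes scaling gave 1515 gained and 1882 lost in the KO clones, against 2510 and 104 unscaled. At day 21 it gave 2177 gained and 4452 lost, against 3697 and 69 unscaled. The filter was applied anew to the scaled values, so the scaled counts are not out of the 13977 genes. Scaling lowers values from long lists, so equal coverage becomes a loss in the group with the longer lists by construction. The scaled losses are therefore not read as losses of the mark. Without the first or second KO parental library the genes gained in the KO clones numbered 1512 or 1078. Of the named genes, LY96 and CX3CR1 in the KO clones and AIF1, TLR8 and C3AR1 at day 21 kept their call after scaling, and S100A12, VCAN and TLR4 in the KO clones and S100A12, FCGR3A, FCGR2A, CSF3R and SPI1 at day 21 lost it. Leaving out 1 library moved the KO count to 2 (the first or second KO parental library or the first of KO clone 12) or to 9 (the second of KO clone 12). It moved the day 21 count to 7 without the second clone 8 library of day 0, and to 8 without the first day 21 library of clone 8 or of clone 11.

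Among secreted and calcium-binding proteins, S100A12, the gene of calgranulin C, had the largest differences of the called genes. It was at 63.2% ± 25.6 in KO clones, against 6.75% ± 9.55 in the parental line (SD, n = 4 and 2; limma adjusted p = 0.0307), and at 66.4% ± 24.5 on day 21 and 21.8% ± 28.0 on day 0 (n = 4 each; limma adjusted p = 0.0270). The day 21 and day 0 libraries overlapped. AIF1, a calcium-binding protein of macrophages and microglia, rose at day 21 to 32.4% ± 12.9, against 0% in all 4 day 0 libraries (limma adjusted p = 0.000694). In KO clones AIF1 was at 21.4% ± 9.63, against 0% in the parental line, and missed the threshold (limma adjusted p = 0.0513, n = 4 and 2). VCAN, the gene of the proteoglycan versican, rose in the KO clones to 5.92% ± 3.52, against 2.27% ± 0.574 in the parental line (limma adjusted p = 0.0209, n = 4 and 2).

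Of the pattern recognition genes, LY96, which encodes the TLR4 partner MD-2, rose in both experiments. It was at 8.67% ± 3.59 in the KO clones, against 0.688% ± 0.078 in the parental line (SD, n = 4 and 2; limma adjusted p = 0.00128), and at 9.03% ± 2.58 on day 21, against 0.738% ± 0.799 on day 0 (n = 4 each; limma adjusted p = 0.000137). TLR4 itself was called gained in the KO clones, at 4.36% ± 2.38 against 1.00% ± 1.42 (limma adjusted p = 0.00866, n = 4 and 2), although its libraries overlapped. At day 21 the TLR4 difference was 1.35 percentage points in the dTAG clones and was not called (limma adjusted p = 0.171). In the dTAG parental line it was 1.46 and not called. CD14, LY96 and TLR4 act together in lipopolysaccharide sensing, which is background and not a result of these data. TLR8, an endosomal RNA sensor, rose at day 21 to 9.53% ± 5.05, against 0% in all 4 day 0 libraries (limma adjusted p = 0.00598). In the KO clones TLR8 was not called, at 8.14% ± 8.01 against 0% in the KO parental line (limma adjusted p = 0.0612, n = 4 and 2).

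CX3CR1, the fractalkine receptor gene, rose in the KO clones to 7.47% ± 4.08, against 0% in both parental libraries (limma adjusted p = 0.0333, n = 4 and 2). At day 21 the Fc receptor gene FCGR3A was at 22.8% ± 13.1, against 1.15% ± 2.30 at day 0 (SD, n = 4 each; limma adjusted p = 0.0147), and FCGR2A was at 16.3% ± 3.18, against 4.18% ± 2.78 (limma adjusted p = 0.00544, n = 4 each). CSF3R, the receptor gene for granulocyte colony-stimulating factor, was at 28.3% ± 11.1 on day 21 and 12.9% ± 6.92 on day 0 (limma adjusted p = 0.0414, n = 4 each), but was at 27.8% ± 4.91 in the KO clones and 30.0% ± 0.610 in the KO parental line and not called there. Scaled by called length, the day 21 difference of CSF3R was −1.06 percentage points. C3AR1, the gene of the complement C3a receptor, rose to 8.44% ± 3.86 on day 21, against 0% in all 4 day 0 libraries (limma adjusted p = 0.000313). In the KO clones C3AR1 was at 1.22% ± 1.82, against 0.515% ± 0.728 in the KO parental line (limma adjusted p = 0.881, n = 4 and 2). FCGR3A and FCGR2A were not called in the KO clones either (limma adjusted p = 0.528 and 0.0954). CX3CR1 was not called at day 21 (limma adjusted p = 0.174).

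SPI1, the gene of PU.1, was at 14.7% ± 2.92 on day 21 in the dTAG clones and 3.49% ± 3.13 on day 0 (SD, n = 4 each; limma adjusted p = 0.0412). In the KO clones SPI1 was at 12.6% ± 6.62, against 10.6% ± 4.30 in the KO parental line, and was not called (limma adjusted p = 0.876, n = 4 and 2). The day 21 call of SPI1 was lost after scaling, with the pileup covariate and without any 1 of 7 of the 8 libraries. The dTAG parental line had 17.9% ± 2.43 at day 21 and 8.37% ± 4.16 at day 0, also not called (limma adjusted p = 1, n = 2 each). The day 21 level of SPI1 thus lay in the same range in tagged and untagged cells, and the difference between them was not tested. Others called gained at day 21 included VSIG4, LY96, FCGR1A, VCAN and ADGRE1.

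**Figure D4:**
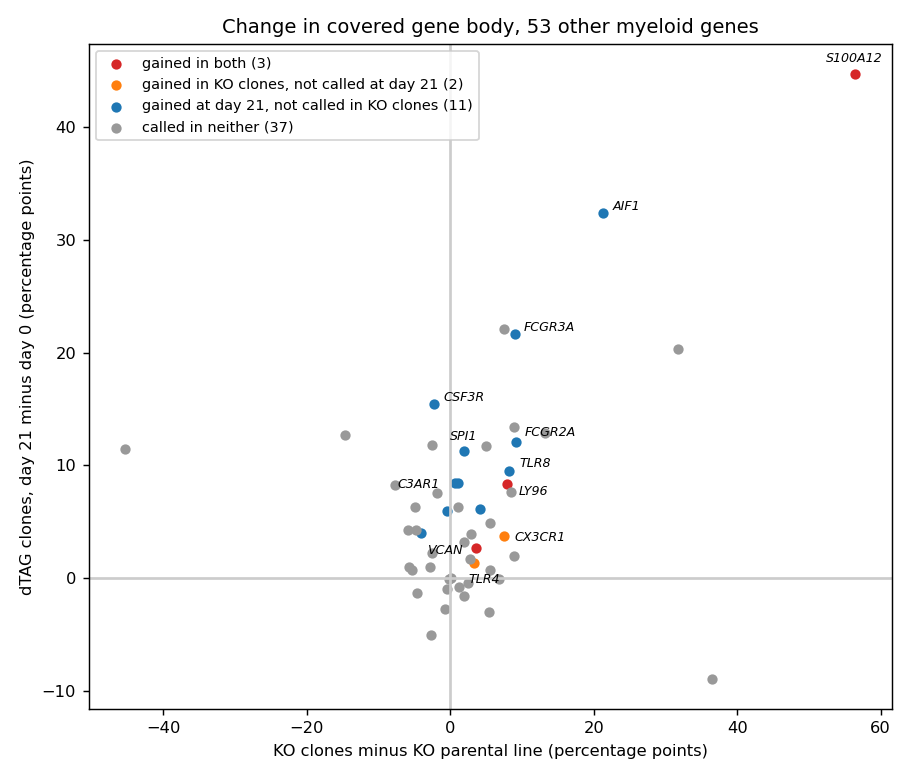
Difference in covered percent for the 53 tested genes of the other myeloid list: KO clones minus KO parental line (horizontal, percentage points) against day 21 minus day 0 in the dTAG clones (vertical, percentage points), coloured by limma call. S100A12 lies far from the rest at 56.4 and 44.7 percentage points, and no gene of the list was called lost in either comparison.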

How the data were processed

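H3K27me3 CUT&Tag libraries of KMS-11 cells were processed by the authors on hg38. The submitters' processing notes name MACS3 3.0.2, Bowtie2, fastp 0.24.0, Picard, SAMtools, ChIPseeker 1.42.1, deepTools 3.5.1 and DESeq2, without roles. The deposited lists are broadPeak files, 1 per library. Calling options and any use of the IgG libraries remain unknown: not given in the sources used here. The score of a deposited peak is its −log10 q times 10. The deposited fold column is a ratio over the caller's background, and −log10 p and −log10 q of each peak are also deposited. Another 10 libraries (2 IgG, 4 H3K27ac, 4 H3K4me3) were not analysed here.

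Peaks were merged per library and intersected with RefSeq genes on GRCh38.p14, the assembly of hg38, for genes of at least 1 kb (19451). Genes with a mean covered percent of 1 to 99 (13977) were fitted with limma 3.58.1 in R 4.3.3 (15 group means over 30 libraries, 15 residual degrees of freedom, eBayes with trend, Benjamini-Hochberg, threshold 0.05). That p rests on spread between the 2 libraries of a group, not between clones, and groups at 0 add none, so it can be too small. The procedure was tested on simulated data. Depth is not listed. It was estimated as the caller's genome-wide background pileup, solved from fold and p of the shortest 2% of peaks, assuming a pseudocount of 1 in the fold. Recurrent stretches are runs of at least 100 bases inside peaks in at least 75% of the libraries of either pool, at most 10 kb from a gene, and a library is counted where peaks cover at least 50% of the stretch. Intersections and plots used scipy 1.17.1, pandas 2.3.3, numpy 2.4.6 and matplotlib 3.10.9 in Python 3.11.15.

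Members and lists were chosen with earlier results of these data known. Named were all members, their nearest protein-coding neighbours, up to 8 called genes of the other myeloid list per comparison and direction by size of difference, and the 3 genes most correlated with each tested member. Alternatives were scaling by called length, a pileup covariate, −log10 q of at least 5, joining over 3 kb, flanks of 5 kb, no filter, the compared groups alone, a replicate block and leaving out each library.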

Additional observations from a re-analysis of the deposited data

Results flagged for a closer look

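Within groups of 4 libraries, 7 member values stood apart from the other 3 by a gap large relative to the group's range (Dixon's criterion at 95%). The criterion flags about 1 in 20 groups only for normally distributed values from a single population. The groups here join libraries of different clones, and any group with 3 equal values and 1 other value is always flagged. The number of flags is therefore not set against a chance rate.

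In the KO clones, FPR1 was at 3.37% in the first library of clone 12 with the others at 0%, and ITGAM was at 5.89% in the first library of clone 3, with the others at 1.55% to 2.17%. On day 0 of the dTAG clones, the first library of clone 11 was the high one for LYZ (6.08%) and CD68 (27.5%), with the others at 0%. FPR3 was low, at 7.50%, in the second clone 8 library of day 0, the shallowest of the series with a pileup of 0.922. CD68 was at 6.67% in the second clone 8 library of day 7, with the others at 0%. LYZ was at 7.55% in the second clone 11 library of day 21, whose pileup of 1.61 was the lowest of its group, with the others at 14.7% to 15.6%. The causes were not tested.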

How the results depend on the processing

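Counts over all 13977 tested genes, gained and then lost, were 2510 and 104 in the KO clones, 3697 and 69 in the dTAG clones at day 21 and 2 and 0 in the dTAG parental line. For the other myeloid list gains were 5, 14 and 0, with no losses. For scaled values and for peaks of −log10 q of at least 5, the filter on mean coverage was applied anew. The counts of these alternatives are therefore not out of the 13977 genes, and the numbers of genes that passed are not given. Scaling by called length gave 1515 and 1882, 2177 and 4452, and 6 and 4 over all genes, and 3 and 13, and 6 and 17, for the list in the KO and dTAG clones. With peaks of −log10 q of at least 5, all genes had 0 and 0 in the KO clones, 28 and 9 at day 21 and 0 gained in the dTAG parental line, and the list had 0 gained in both clone experiments. With the pileup covariate, 413 genes were lost in the KO clones, 2252 gained and 649 lost at day 21 and 1 lost in the parental line, and the list had 4 lost in the KO clones and 7 gained and 4 lost at day 21. When the fit held the compared groups alone, 754 genes were gained and 44 lost in the KO clones and 0 gained in the parental line, and the list had 1 gained and 1 lost in the KO clones. With no filter on mean coverage 7 genes were gained in the parental line. The causes were not tested.

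Leaving out 1 library at a time gave 1078 to 2679 gained and 71 to 90 lost genes in the KO clones, 2546 to 3968 and 39 to 117 at day 21, and 0 to 64 and 0 to 6 in the dTAG parental line. For the list it gave 2 to 9 gained in the KO clones and 7 to 15 at day 21, and 0 in all other counts. Lost genes at day 21 were 117 without the second clone 8 library of day 0, 40 without the first of clone 8 of day 21 and 39 without the second of clone 11 of day 21. In the parental line gained genes were 64 without the second and 10 without the first library of day 21, and 0 without the second of day 0. Lost genes there were 6 without the second library of day 0 and 1 without the first.

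The replicate numbers of the labels were tried as a block. Deviations of same-numbered libraries from their group means correlated at 0.033 to 0.558 over 105 pairs of groups, at 0.165 to 0.224 within the KO experiment and at 0.105 to 0.322 between the day 0 and day 21 groups of the dTAG clones. Each group has 2 numbers, and no label says that a number marks a shared batch or day, so the numbers are taken as shared names only. The replicate block gave 3030 gained and 167 lost genes in the KO clones, 4449 and 116 at day 21 and 3 and 0 in the parental line, and 9 and 17 gained genes of the list in the KO and dTAG clones.

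Of the differences of single genes, 23 alternative values had the opposite sign, 4 of them where the unaltered difference was called or exceeded the spread between replicates. The KO difference of FPR1 was −11.3 percentage points in the full fit and ran from −23.4 to 0.842 with 1 library left out, 0.842 being without the first KO parental library. With −log10 q of at least 5 the ITGAM difference was −0.288 in the KO clones and −0.165 in the parental line. The day 21 difference of CSF3R was −1.06 after scaling. The other 19 belonged to differences smaller than their spread. At day 21 in the dTAG clones FPR1 (1.64) ran to −3.22 and FPR2 (−1.11) to 4.12. In the dTAG parental line FPR2 (5.72) ran to −6.95, FPR3 (−1.90) to 4.79 and CSF1R (1.56) to −3.02. Among single genes, 320 of the members' alternative values stayed within their spread and 58 moved, and of the named other myeloid genes 127 kept their side of the threshold and 63 lost their call.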
